A study of Mus musculus with 8 samples.

Results

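The genes described here encode 9 enzymes and enzyme subunits that set how long the circadian PER and CRY proteins last: Csnk1d, Csnk1e and Csnk1a1 (casein kinase 1 delta, epsilon and alpha), Csnk2a1 and Csnk2b (catalytic and regulatory subunits of casein kinase 2), Gsk3b (glycogen synthase kinase 3 beta), Btrc and Fbxw11 (the beta-TrCP proteins) and Usp2 (a deubiquitinase). They were chosen by gene symbol from a table of 78298 transcript rows. Each symbol had 1 row, and all 9 were expressed highly enough to be among the 17128 rows tested. Poly(A) RNA was sequenced from wild-type NIH3T3 cells, an established mouse embryonic fibroblast line: 4 libraries after 1 day with Mic-628, a compound known here by its code name, and 4 after 1 day with vehicle. All cells were grown in DMEM with fetal bovine serum, the dose is not given in the sources used here, and each batch number from 1 to 4 marks 1 Mic-628 and 1 vehicle library. The series title describes an inducer of Period1 that advances the clock, so the comparison asks whether transcripts of the enzymes that act on PER and CRY differed after treatment as well.

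In the mammalian clock, PER and CRY proteins repress their own transcription and must be destroyed before a new cycle can begin. Casein kinases phosphorylate PER, which lets beta-TrCP, the substrate-binding subunit of an SCF (SKP1, cullin, F-box) ubiquitin ligase, recognise it and mark it for the proteasome. Deubiquitinases such as USP2 remove such marks, and the speed of these steps is a main determinant of period length.

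For transcripts of the 9 enzymes, the estimated differences after Mic-628 lay between -4.86% and 9.02%. Their confidence intervals were wider, reaching 11.1% for Csnk2a1, 11.6% for Btrc and, for Usp2, from -5.32% to 25.5%. Levels near those of vehicle were thus not established for all 9. All libraries were taken after 1 day, so a shift in the phase or amplitude of a rhythm could not be seen. By edgeR's quasi-likelihood test with Benjamini-Hochberg adjustment, 0 of 9 were called changed at an adjusted p under 0.05, against 4.37% of all tested rows. DESeq2 and limma-trend also called 0. At an unadjusted p under 0.05 there were 2 of the 9, Csnk1d and Csnk2a1, against 17.0% of all rows. No gene of the 9 had groups that were fully apart in CPM (counts scaled to library size with TMM factors), which 10.7% of all rows did. The estimates were positive for 5 genes and negative for 4. The median log2 fold change of Mic-628 over vehicle was 0.0006 for the 9 and -0.004 for all rows, and the median absolute value was 0.044 for the 9 and 0.072 for all rows. The median standard error was 0.0343 for the 9 and 0.0671 for all rows. Noise alone enlarges absolute values, so the 2 medians do not show that the 9 were steadier than other genes. The labels do not say whether replicates were separate cultures, so the p-values here reflect variation among the 8 libraries that could be purely technical. Among 7669 rows averaging at least 20 CPM, which include 8 of the 9, 7.25% were called.

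Counts on listed transcripts totalled 18106347 to 23158317 per library with Mic-628 and 20313305 to 21715811 with vehicle. The fibroblast label was checked against its markers: 9 of 10 fibroblast markers reached 1 FPKM (counts scaled to exon length and library total), and Fap was at 0 in all 8 libraries. The summed level of these markers was 4431 to 4548 FPKM with Mic-628 and 5080 to 5259 FPKM with vehicle, and its part in the results below was not tested. Most of that difference was in Vim (1787 to 1877 FPKM with Mic-628 and 2059 to 2167 FPKM with vehicle) and Fn1 (1297 to 1358 FPKM with Mic-628 and 1461 to 1668 FPKM with vehicle). Col1a2 and Col3a1 were also lower and apart, while Col1a1, Thy1, Pdgfra, Pdgfrb and S100a4 overlapped between the groups. No marker of the endothelial (0 of 4), epithelial (0 of 5), muscle (0 of 3) or neural (0 of 3) lists reached 1 FPKM. Of the 4 blood markers Cd68 did, at 7.10 to 7.68 FPKM with Mic-628 and 6.36 to 6.90 FPKM with vehicle, while Adgre1 was at 0 and Ptprc at no more than 0.06 FPKM. Of the 3 adipocyte markers Fabp4 did, at 0.741 to 1.06 FPKM with Mic-628 and 0.312 to 0.659 FPKM with vehicle, while Adipoq was at 0. Both were higher with Mic-628 without overlap, and their part in the results was not tested. In such bulk samples, fewer cells of a type and less RNA per cell cannot be told apart.

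Csnk1d and Csnk1e encode the closely related kinases that act on PER most directly. Because their coding sequences are alike, with 77.4% of 1224 aligned bases identical, it matters whether reads can be assigned to one of them. In the GENCODE M21 transcripts, the longest run of bases that both share is 23, well below the read length of 101 bases. The stretch around that run is shown to make the separation visible. It covers coding bases 802 to 944 of each transcript, 143 bases with 35 differences, and capitals mark the bases that differ.
Csnk1d: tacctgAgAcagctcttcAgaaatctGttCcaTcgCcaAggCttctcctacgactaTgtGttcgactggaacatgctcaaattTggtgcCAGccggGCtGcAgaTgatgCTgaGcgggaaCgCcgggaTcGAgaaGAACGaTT
Csnk1e: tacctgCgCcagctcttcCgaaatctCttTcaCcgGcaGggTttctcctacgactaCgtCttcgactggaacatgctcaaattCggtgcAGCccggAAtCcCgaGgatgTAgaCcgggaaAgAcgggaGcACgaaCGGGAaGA

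Csnk1d (transcript ENSMUST00000018274.10, mm39 chromosome 11, 120852575 to 120882156, minus strand) had 185.6, 193.9, 194.1 and 198.0 CPM in Mic-628 replicates 1 to 4, and 197.4, 205.8, 203.2 and 204.8 CPM in vehicle replicates 1 to 4. Mic-628 was lower in 4 of 4 same-batch pairs, but the highest Mic-628 library lay just above the lowest vehicle library, so the groups overlapped in CPM. In FPKM, which uses the header totals without TMM factors, they were just apart: Mic-628 reached 49.9 at most, and every vehicle library lay above that (48.8 ± 1.37 FPKM with Mic-628 and 51.3 ± 0.906 FPKM with vehicle, SD, n = 4 each). The difference was -4.86% (95% interval -9.04% to -0.48%; log2 fold change -0.07, SE 0.0314), and it was not called (edgeR adjusted p = 0.235). Csnk1e (ENSMUST00000117786.9, chromosome 15, 79302056 to 79326200, minus strand) had 81.9, 78.0, 77.5 and 76.7 CPM with Mic-628, and 79.5, 80.2, 80.7 and 83.3 CPM with vehicle. Here Mic-628 replicate 1 was higher than 3 of the 4 vehicle libraries, while the other 3 Mic-628 libraries were below all of them. The difference was -3.01% (interval -7.71% to 1.94%; edgeR adjusted p = 0.570).

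Both loci carry rows on the opposite strand, and it is not known whether the counting used strand. Gm28192 lies inside Csnk1d and shares 63 exonic bases with it on GRCm38, and its counts of 124 to 167 per library were small beside 3361 to 4515 for Csnk1d. Gm16059 lies inside Csnk1e and shares 260 exonic bases, with 186.5 to 257 counts per library against 1482 to 1816 for Csnk1e. A second row inside Csnk1e, ENSMUSG00000132106, had 1 to 5 counts. Neither Gm28192 nor Gm16059 was called (log2 fold changes -0.09 and -0.11; edgeR adjusted p = 0.669 and 0.513).

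Csnk1a1 encodes casein kinase 1 alpha, which also primes beta-catenin for destruction. Its row (ENSMUST00000165721.8, chromosome 18, 61688384 to 61721375, plus strand) had 241.8, 236.9, 241.8 and 235.2 CPM with Mic-628, and 249.1, 242.4, 241.7 and 239.3 CPM with vehicle. The difference was -1.73% (interval -5.86% to 2.58%; edgeR adjusted p = 0.738). Mic-628 was lower in 3 of 4 same-batch pairs, and Mic-628 replicates 2 and 4 lay below every vehicle library, while replicates 1 and 3 lay within the vehicle range.

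**Figure D1:**
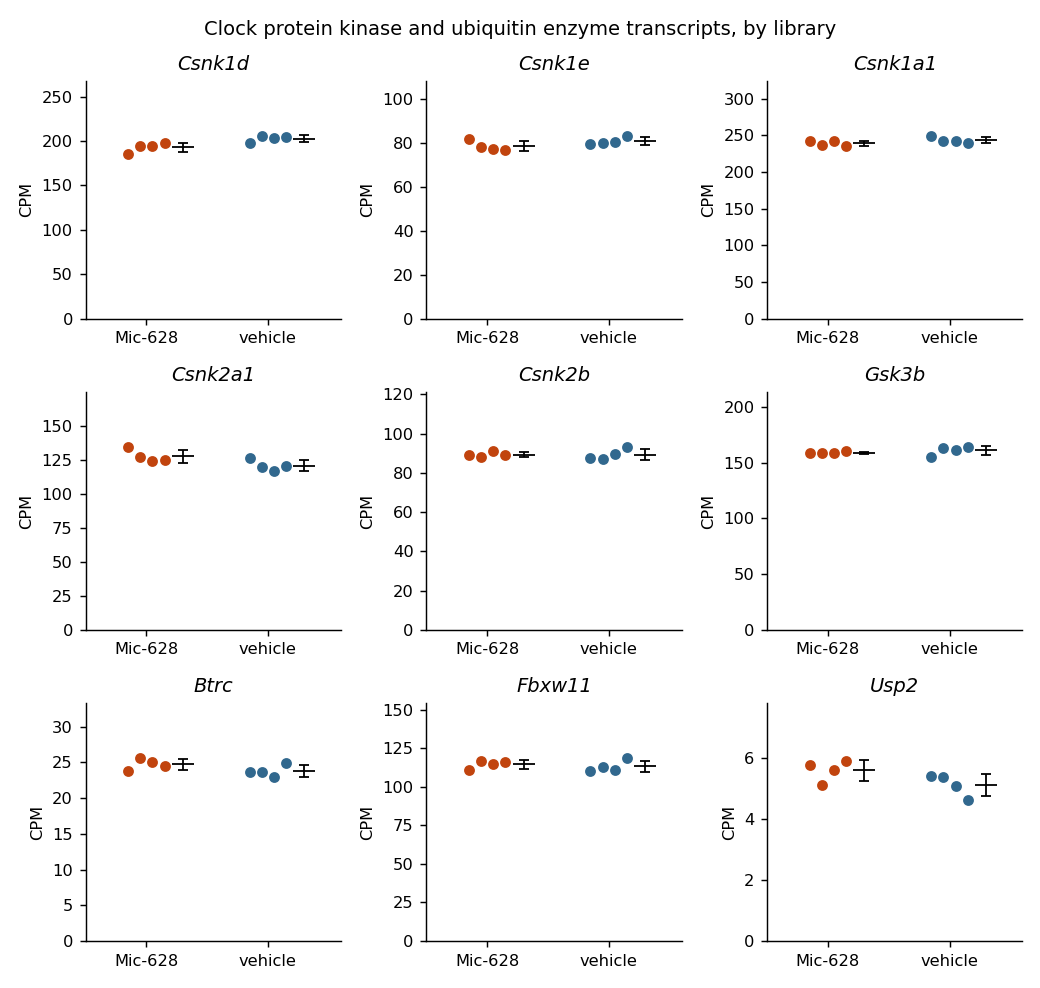
CPM of each of the 9 genes in every library, with Mic-628 left and vehicle right in each panel, and an axis that starts at 0. Points are libraries in order of replicate number, and the bar beside them is the mean ± SD (n = 4). In every panel the groups overlap, with Csnk1d lying slightly lower and Csnk2a1 slightly higher with Mic-628.

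Casein kinase 2 is a tetramer of catalytic and regulatory subunits that phosphorylates PER2 and BMAL1. Its catalytic subunit gene Csnk2a1 (ENSMUST00000099224.10, chromosome 2, 152068759 to 152123772, plus strand) had 134.5, 127.5, 124.3 and 124.8 CPM with Mic-628, and 126.1, 119.9, 116.6 and 120.8 CPM with vehicle. Mic-628 was higher in 4 of 4 same-batch pairs, and the groups overlapped because vehicle replicate 1 was above Mic-628 replicates 3 and 4. The difference was 5.68% (interval 0.523% to 11.1%; log2 fold change 0.08, SE 0.035), not called (edgeR adjusted p = 0.236). The row Csnk2a1-ps3, named as a pseudogene, shares an exact run of 1133 bases with Csnk2a1, so reads cannot be assigned between them with certainty. That row held 15 to 25.5 counts per library, against 2435 to 2971 for Csnk2a1. It was not called (log2 fold change 0.36, edgeR adjusted p = 0.416). The coding sequences match at 1172 of 1173 bases, and how shared reads were handled is not given, so these counts do not bound misassignment. The regulatory subunit gene Csnk2b (ENSMUST00000173114.8, chromosome 17, 35335172 to 35340405, minus strand) had 89.0, 87.9, 91.4 and 89.2 CPM with Mic-628, and 87.4, 87.0, 89.8 and 93.2 CPM with vehicle. The means were all but equal (difference 0.0437%, interval -4.75% to 5.08%; edgeR adjusted p = 0.999), and the sign turned when single libraries were left out.

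GSK3 beta phosphorylates CRY2 and REV-ERB alpha among clock proteins. Gsk3b (ENSMUST00000023507.13, chromosome 16, 37909363 to 38066446, plus strand) had 158.6, 158.7, 158.6 and 160.3 CPM with Mic-628, and 155.3, 163.5, 161.2 and 164.1 CPM with vehicle. The Mic-628 libraries lay within the vehicle range. Their coefficient of variation was 0.517%, below the 1.72% that counting alone gives at this depth. The rows inside Gsk3b, which are Gm25617 in 2 versions and Gm54387, had 0 to 2 counts per library. The difference was -1.24% (interval -5.51% to 3.22%; edgeR adjusted p = 0.830).

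Btrc and Fbxw11 encode beta-TrCP1 and beta-TrCP2, the F-box proteins that bind phosphorylated PER. Their coding sequences are identical at 74.3% of 1686 aligned bases, and the longest run they share is 22 bases, again below the read length. The stretch around that run is shown for the same reason as for the kinases, over 142 bases with 35 differences in capitals: coding bases 913 to 1054 of Btrc and 787 to 928 of Fbxw11.
Btrc: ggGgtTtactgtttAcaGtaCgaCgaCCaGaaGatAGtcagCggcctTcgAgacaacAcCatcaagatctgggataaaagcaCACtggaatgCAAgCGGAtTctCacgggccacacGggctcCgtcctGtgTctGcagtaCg
Fbxw11: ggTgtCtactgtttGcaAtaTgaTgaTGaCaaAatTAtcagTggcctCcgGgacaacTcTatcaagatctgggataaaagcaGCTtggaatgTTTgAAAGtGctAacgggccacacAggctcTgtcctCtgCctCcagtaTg

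Btrc (ENSMUST00000065601.13, chromosome 19, 45352190 to 45518452, plus strand) had 23.8, 25.6, 25.0 and 24.5 CPM with Mic-628, and 23.7, 23.7, 22.9 and 24.9 CPM with vehicle. Fbxw11 (ENSMUST00000076383.8, chromosome 11, 32592875 to 32696816, plus strand) had 110.7, 116.7, 114.7 and 116.1 CPM with Mic-628, and 110.5, 112.6, 111.0 and 118.6 CPM with vehicle. The row Gm6807 lies inside Btrc on the opposite strand, shares 0 exonic bases with it on GRCm38 and held 43 to 77 counts per library, against 429.5 to 595.5 for Btrc (log2 fold change -0.09; edgeR adjusted p = 0.817). A further row inside Btrc, ENSMUSG00000125449, had 0 counts. For both genes Mic-628 was higher in 3 of 4 same-batch pairs, and the groups overlapped. The difference was 3.95% for Btrc (interval -3.21% to 11.6%; edgeR adjusted p = 0.630). For Fbxw11 it was 1.25% (interval -3.54% to 6.29%; edgeR adjusted p = 0.846).

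Usp2 encodes a deubiquitinase that acts on PER1, CRY1 and BMAL1, and its transcript is rhythmic in many mouse tissues. The row (ENSMUST00000065461.9, chromosome 9, 43996236 to 44005774, plus strand) had 5.74, 5.11, 5.59 and 5.87 CPM with Mic-628, and 5.39, 5.35, 5.08 and 4.61 CPM with vehicle. Mic-628 replicate 2 was below 2 vehicle libraries and the other Mic-628 libraries were above all of them. With 98 to 124.5 counts per library this was the least precise member: the difference was 9.02% with an interval of -5.32% to 25.5% (log2 fold change 0.12, SE 0.0986; edgeR adjusted p = 0.571). Differences anywhere within that interval remained compatible with these data. The row stands for 1 of 9 Usp2 transcripts in GENCODE M21, so changes among isoforms were not measured. The same limit holds for the other enzyme genes, which have from 5 (Csnk2a1, Fbxw11 and Gsk3b) to 14 (Csnk1e) transcripts there. The opposite-strand row Gm49380 spans it with 556 to 697 counts, but the exons of both share 0 bases on GRCm38 (log2 fold change -0.02; edgeR adjusted p = 0.930).

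Promoter windows of 250 bases before a RefSeq start site (GRCm38.p6) were matched for 6 of the 9 genes, in 11 windows. The E-box CACGTG, bound by CLOCK and BMAL1, was in 0 of these genes' windows, and in 6.02% of 32851 windows of all genes. The related CACGTT (3.85% of all windows), the cAMP response element TGACGTCA (1.55%) and the D-box TTATGTAA (0.819%) were in 0 of them too, on either strand. The shorter TGACG, which also forms part of TGACGTCA, was in windows of 2 genes, Csnk1e and Csnk2b, and in 17.8% of all windows. A count of genes cannot be set against a share of windows, since a gene can have several. For Csnk1e the motif was in overlapping windows, 144 and 58 bases from the counted start site. For Csnk2b it was in a window 137 bases away, and not in the window at the counted start site itself. These are letters in short windows only. The Usp2 window is shown because Usp2 is the member best known as clock-controlled. It lies at chr9:44084670-44084919 on the plus strand of GRCm38.p6, its start site is 19 bases from that of the counted transcript, and it has no capitals because it holds none of the motifs searched.
Usp2: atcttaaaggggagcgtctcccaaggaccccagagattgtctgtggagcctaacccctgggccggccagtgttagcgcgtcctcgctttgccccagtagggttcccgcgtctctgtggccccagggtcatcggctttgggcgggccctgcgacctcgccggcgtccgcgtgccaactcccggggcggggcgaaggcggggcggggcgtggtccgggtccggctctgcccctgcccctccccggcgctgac

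**Figure D2:**
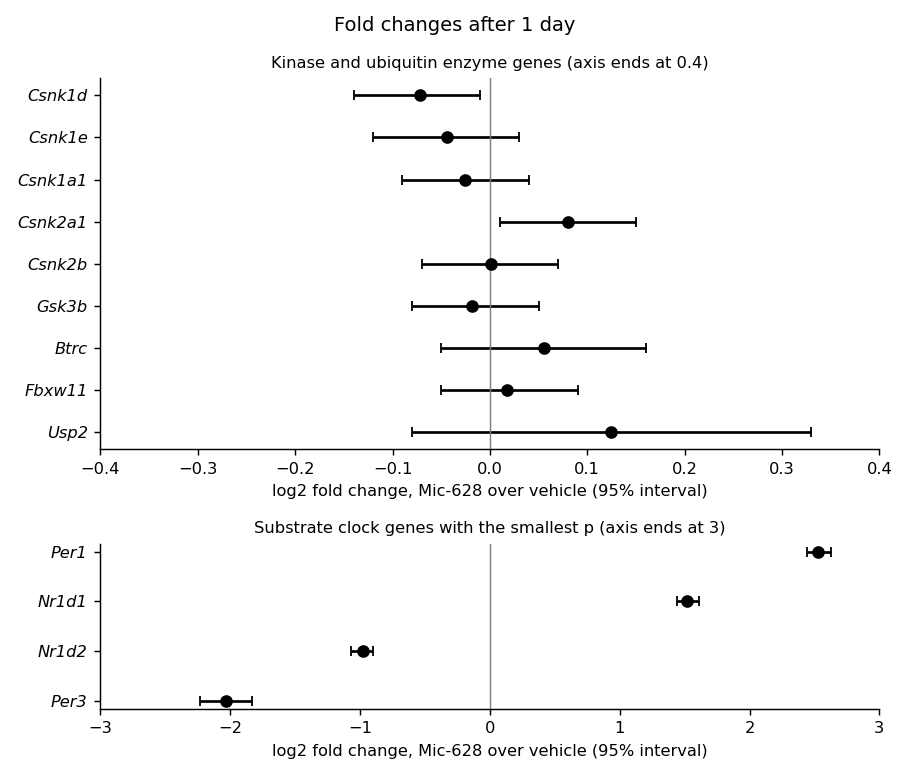
Log2 fold changes of Mic-628 over vehicle with 95% intervals from the edgeR fit (n = 4 libraries in each group). The upper panel has the 9 enzyme genes, with estimates between -0.07 and 0.12; the lower panel, on a wider axis, has the 4 substrate clock genes with the smallest p, between -2.03 and 2.53.

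Per length of exon, the 9 transcripts spanned a 39.8-fold range of levels. Over all 8 libraries, Csnk1a1 averaged 96.8 FPKM (range 94.2 to 100.2) and Csnk2b 91.5 FPKM (89.2 to 95.2), and these ranges overlapped. Csnk1d followed at 50.1 FPKM, apart from both neighbours. Csnk1e (27.6 FPKM), Csnk2a1 (27.5 FPKM) and Fbxw11 (26.4 FPKM) overlapped in turn. Gsk3b (17.9 FPKM), Btrc (7.61 FPKM) and Usp2 (2.43 FPKM) each stood apart from their neighbours. Each level rests on the length of a single canonical transcript.

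**Figure D3:**
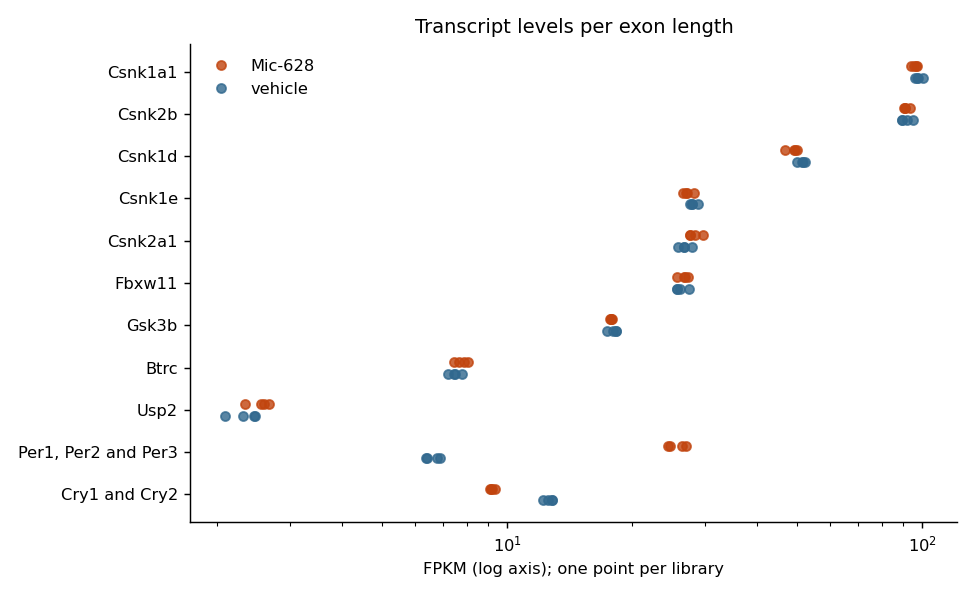
FPKM (log axis) of the 9 enzyme genes in order of level, and of the summed Per and Cry genes, with 1 point per library and Mic-628 above vehicle in each row. For each enzyme gene the Mic-628 and vehicle points lie close together, while the summed Per genes lie near 25.6 FPKM with Mic-628 and 6.60 FPKM with vehicle.

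The balance within enzyme pairs was compared by exact two-sided permutation of the library labels on log2 FPKM ratios, over 3 ratios; the smallest p that 4 against 4 libraries allow is 0.0286. The ratio of Csnk1d to Csnk1e was 1.80 with Mic-628 and 1.83 with vehicle (log2 0.84 ± 0.080 and 0.87 ± 0.027, SD, n = 4 each; exact permutation p = 0.686, adjusted 0.686). Mic-628 replicate 1 had the lowest log2 ratio, 0.729, and without it the difference was 0.0092 in place of -0.029. The ratio of Csnk2a1 to Csnk2b was 0.309 with Mic-628 and 0.292 with vehicle (exact permutation p = 0.171, adjusted 0.257), and it was higher with Mic-628 in 4 of 4 same-batch pairs. Within pairs, an exact sign-flip permutation test gave p = 0.125 for this ratio, the smallest that 4 pairs allow, so the paired design could not reach 0.05. The same paired test gave exact p = 0.625 for Csnk1d to Csnk1e and 0.250 for Btrc to Fbxw11. The ratio of Btrc to Fbxw11 was 0.292 with Mic-628 and 0.285 with vehicle (exact permutation p = 0.114, adjusted 0.257). None of the 3 ratios passed the threshold in these tests. With adjustment over 3 ratios, 1 ratio alone at 0.0286 would still lie above 0.05. The unpaired test could thus not call a single shifted pair either, and the lack of calls does not show that the balance was unchanged.

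Genes of the substrates gave much larger differences, which are set out only as the scale for the enzymes. Of 9 tested genes for the core clock proteins on which these enzymes act, 2 rose (2.13% of all rows did) and 6 fell (2.25% of all rows did), with Per1 and Nr1d1 higher and Nr1d2 and Per3 lower having the smallest p. Per1, an early target of clock-resetting signals, had 124.5 ± 5.76 CPM with Mic-628 and 21.5 ± 1.21 CPM with vehicle (SD, n = 4 each; log2 difference 2.53, edgeR adjusted p = 1.16e-22). The log2 differences were 1.52 for Nr1d1, -0.98 for Nr1d2 and -2.03 for Per3, and Clock was the gene of the 9 that was not called. Summed over Per1, Per2 and Per3, the substrate level was 24.7, 26.9, 24.4 and 26.4 FPKM with Mic-628, and 6.35, 6.41, 6.90 and 6.75 FPKM with vehicle. Summed over Csnk1d and Csnk1e, the kinase level was 75.0, 76.4, 76.1 and 76.4 FPKM with Mic-628, and 77.6, 79.9, 79.4 and 80.4 FPKM with vehicle. The kinase sum was lower with Mic-628 in 4 of 4 same-batch pairs and its groups did not overlap (76.0 ± 0.635 FPKM with Mic-628 and 79.3 ± 1.25 FPKM with vehicle, SD, n = 4 each; given as a description, with no test). Most of the kinase sum was Csnk1d (mean 48.8 FPKM with Mic-628 and 51.3 FPKM with vehicle), which was not called. The 10.7% of all rows whose groups did not overlap is for single rows in CPM, and no such share was computed for sums in FPKM. The Per sums were much further apart. The ratio of the kinase sum to the Per sum was 2.84 to 3.12 with Mic-628 and 11.5 to 12.5 with vehicle. For Per2 and Per3 alone, summed, the same ratio was 110.7 ± 14.9 with Mic-628 and 34.6 ± 2.05 with vehicle (SD, n = 4 each). With Mic-628 both genes were low (Per2 0.185 to 0.348 FPKM, Per3 0.402 to 0.516 FPKM), so small differences in them move this ratio. It was 88.4 in Mic-628 replicate 2, and 117.6, 118.2 and 118.4 in replicates 1, 3 and 4. Summed over Cry1 and Cry2, the level was 9.19 ± 0.127 FPKM with Mic-628 and 12.6 ± 0.265 FPKM with vehicle (SD, n = 4 each). These are ratios of RNA levels; protein amounts and enzyme activity were not measured.

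Other genes of the same machinery were read from 8 lists, with 103 genes tested in all: 2 were higher, 1 was lower and 100 were not called, which is 2.91% called. Over all rows 4.37% were called, 2.13% higher and 2.25% lower, and 17.0% had an unadjusted p under 0.05; the counts below are to be read against these shares. The median log2 fold change of the 103 was 0.008, against -0.004 for all rows. Among 14 tested kinases reported to phosphorylate clock proteins, 1 rose (2.13% of all rows did), 0 fell (2.25% of all rows did) and 13 were not called. The one that rose was Prkca, which encodes protein kinase C alpha. It had 108.5, 105.1, 100.6 and 99.8 CPM with Mic-628, and 82.8, 87.6, 83.4 and 87.0 CPM with vehicle. The groups did not overlap (log2 fold change 0.28, SE 0.0361; edgeR adjusted p = 1.23e-05), and the call stood in every alternative run.

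The other casein kinase genes (Csnk1g1, Csnk1g2, Csnk1g3 and Csnk2a2) gave 0 calls of 4, with 2 at an unadjusted p under 0.05 (17.0% of all rows). Csnk1g3 had the smallest p (log2 fold change 0.13; edgeR adjusted p = 0.129). Of 9 phosphatase subunit genes, whose products oppose the kinases, 0 were called and 1 had an unadjusted p under 0.05, namely Ppp1cb (0.07; edgeR adjusted p = 0.281). DESeq2 and limma-trend called 0 in both lists as well.

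On the ubiquitin side, 0 of 15 other ligase genes of clock proteins were called, with 6 at an unadjusted p under 0.05, a larger share than the 17.0% of all rows. Those 6 differed in both directions. The 17.0% also covers low-count rows, and calls depended on level: 7.25% of rows averaging at least 20 CPM were called, against 4.37% of all rows. Both of those shares are for an adjusted p under 0.05. No share at an unadjusted p was computed for rows of that level, so the 6 of 15 has no background matched for level. DESeq2 and limma-trend called 0 of the 15 too. The smallest p was that of Ube2o, which encodes an enzyme with both conjugating and ligase activity (log2 fold change -0.09; edgeR adjusted p = 0.132). Of 10 genes for the SCF core and for neddylation, the modification that activates cullins, 0 were called and 3 had an unadjusted p under 0.05 (17.0% of all rows). Uba3, a subunit of the NEDD8-activating enzyme, had a log2 fold change of 0.12 that just missed the threshold (adjusted p = 0.0531 with edgeR). Of 23 alternatives, 17 did not call Uba3 either. Among them were DESeq2 without the replicate block (adjusted p = 0.0596) and with it (0.345), edgeR with the block (0.0766) and limma-trend (0.147, 0.149 and 0.291). The other 6, all with edgeR, called it: DESeq2 size factors (0.0460), library size only (0.0387), no low-count filter (0.0442) and the stricter filter (0.0466). The last of these were without vehicle replicate 1 (0.00733) and without both libraries of replicate 1 (0.00632).

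Among 43 tested ubiquitin-specific protease genes other than Usp2, 1 rose (2.13% of all rows did), 1 fell (2.25% of all rows did) and 41 were not called. Usp1, whose product acts on FANCD2 and PCNA in DNA repair, had 115.0, 106.1, 109.8 and 109.5 CPM with Mic-628, and 100.9, 94.9, 100.1 and 94.5 CPM with vehicle. Its groups did not overlap (log2 fold change 0.17, SE 0.0355; edgeR adjusted p = 0.00408). Usp22, the deubiquitinase of the SAGA coactivator complex, had 145.6, 143.8, 142.3 and 142.8 CPM with Mic-628, and 153.9, 154.9, 158.0 and 158.3 CPM with vehicle. Its groups did not overlap either (-0.12, SE 0.0303; edgeR adjusted p = 0.0187). Usp22 was not called without Mic-628 replicate 3 or 4 or vehicle replicate 2 or 3 (edgeR adjusted p 0.0737, 0.0626, 0.0534 and 0.0674), nor without both libraries of replicate 2, 3 or 4 (0.130, 0.183 and 0.103) or with the replicate block in DESeq2 (adjusted p = 0.266). Usp1 was not called by limma-trend over all rows (adjusted p = 0.0951).

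CK1, GSK3 beta and beta-TrCP also take part in the destruction of beta-catenin, so the genes of that complex and the feedback targets of Wnt signalling were read too. Of 4 tested destruction complex genes 0 were called, with 1 at an unadjusted p under 0.05, Amer1 (log2 fold change -0.10; edgeR adjusted p = 0.254). Axin2 was too low to test, at 0 to 3 counts per library. Of 11 Wnt feedback targets 4 were high enough to be tested and 0 were called, with 2 at an unadjusted p under 0.05 (17.0% of all rows). DESeq2 and limma-trend also called 0 in both of these lists. Apcdd1, a Wnt inhibitor gene, had the smallest p (0.17; edgeR adjusted p = 0.183), and was called without both libraries of replicate 1 (0.0453).

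**Figure D4:**
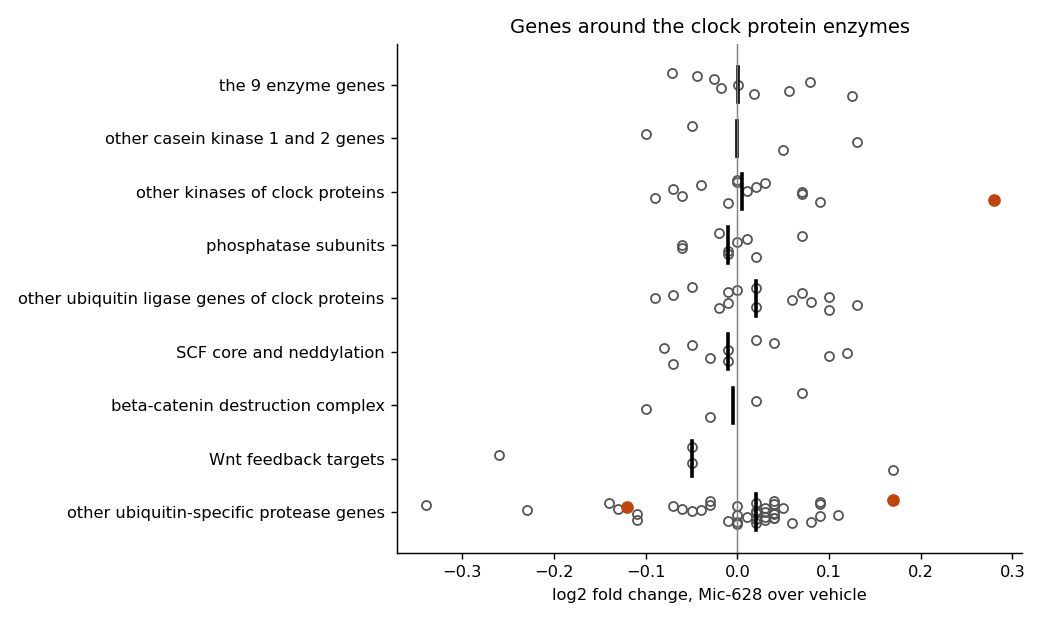
Log2 fold changes of Mic-628 over vehicle for the 9 enzyme genes and for the tested genes of the 8 lists around them, 1 point per gene. Filled points are genes called at an adjusted p under 0.05 (Prkca at 0.28, Usp1 at 0.17 and Usp22 at -0.12), open points are not called, and the black bar is the median of each row.

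Csnk1d had the smallest p of the 9. The 3 rows whose centred log2 CPM over the 8 libraries lay nearest to its own, among 15058 rows with a mean of at least 1 CPM, were Maz, Slc37a3 and Osbpl1a. Their root mean square differences from Csnk1d were 0.0126, 0.0146 and 0.0152 on the log2 scale, against a spread of 0.0465 for Csnk1d itself. None of the 3 was called (edgeR adjusted p = 0.0979, 0.564 and 0.334).

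**Figure D5:**
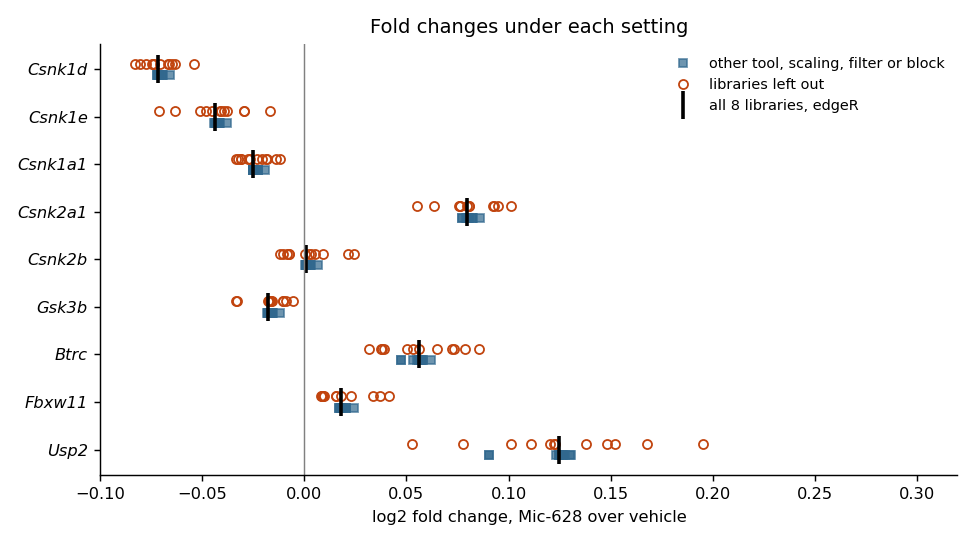
Log2 fold changes of the 9 enzyme genes under each setting: the black bar is edgeR on all 8 libraries, squares are other tools, scalings, filters or the replicate block, and open circles leave out a library or a batch. Csnk2b is the gene whose points fall on both sides of 0, and Usp2 has the widest range, 0.05 to 0.20.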

How the data were processed

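Poly(A) RNA from 8 NIH3T3 libraries was measured. Per the labels' protocols, total RNA was extracted with Trizol, a stranded mRNA kit served for library construction, and paired reads had 101 bases. The tools listed are HOMER 4.11, STAR 2.7.10a and bcl2fastq, with GRCm39 (mm39), per the submitters' processing notes; their roles are not given in the sources used here. The authors deposited exon read counts per canonical transcript, which come in steps of 0.5 and were treated as estimated counts, and FPKM values for the same rows, which recomputation from counts, exon length and header totals matched to within 5e-04. Coordinates are 1-based on mm39 unless GRCm38 is named.

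The rounded counts went into edgeR 4.0.16 under R 4.3.3 (filterByExpr with minimum count 10, TMM, quasi-likelihood F test, no block, Benjamini-Hochberg over 17128 rows). The standard error is the size of the log2 fold change divided by the square root of F. Alternatives were DESeq2 1.42.0, limma 3.58.1 on log2 FPKM (pseudocount 1 or 0.1, with rows averaging 0.5 FPKM or more, or with every row), other scalings and filters (the stricter one required 4 libraries with 1 CPM or more), a threshold of 0.01, a replicate block, and leaving out libraries or batches. The fits were tested on simulated data. The 9 genes and the lists were chosen with earlier results of these data known. Named genes are the 9, the called members of each list (up to 4, by p) or otherwise the 1 with the smallest p, rows overlapping the 9, and the 3 rows nearest to the member with the smallest p.

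The labels give same-numbered libraries a shared batch, so the numbers pair them. Their deviations from the group means correlated at -0.0925, 0.0744, -0.0213 and -0.0949 over 10292 rows. All of these lay within -0.117 to 0.141, the range for Mic-628 and vehicle libraries of different numbers. Same-numbered libraries were thus no more alike by this measure than others. Replicates of a group differed by more than counting noise (chi-square per row 1.66 to 5.33). Sequences are from GENCODE M21 and from a RefSeq promoter table of GRCm38.p6. Plots used matplotlib 3.10.9 (Python 3.11.15).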

Additional observations from a re-analysis of the deposited data

Results flagged for a closer look

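Gsk3b with Mic-628 was the single case, among 24 groups of 4 libraries screened (9 genes and 3 ratios in each treatment), where a library stood apart from the rest by Dixon's ratio: replicate 4 had 160.3 CPM, while replicates 1 to 3 had 158.6, 158.7 and 158.6 CPM. The gap is wide only relative to the very close values of the other 3, and chance flags about 1 in 20 such groups.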

How the results depend on the processing

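None of the 9 genes was called in any of 23 alternatives each, 207 values in all. The alternative threshold of 0.01 reused the main fit, so it could not call a gene that was not called at 0.05. The smallest adjusted p was 0.0954 with edgeR, for Csnk2a1 without vehicle replicate 1. Of the 207, 5 had the opposite sign, all for Csnk2b with libraries left out (log2 fold change -0.0121 to -0.0076, within a range of -0.0121 to 0.0242 over all such omissions), and the Csnk1d to Csnk1e difference ran from -0.0529 to 0.0092 when single libraries were left out; the cause was not tested. With the replicate block, edgeR called 624 of all rows, against 749 without it, and again 0 of the 9. The count over all rows, and with it the background of 4.37%, was less stable. It was 253 (134 higher, 119 lower) with the block in DESeq2, 277 (156 and 121) and 273 (153 and 120) by limma-trend with pseudocounts 1 and 0.1, 170 (107 and 63) by limma-trend over all rows, and 330 (173 and 157) at a threshold of 0.01. With libraries or batches left out it ran from 292 to 802, with 164 to 412 higher and 128 to 429 lower. Omitting Mic-628 replicate 3 gave 438 and omitting vehicle replicate 2 gave 426, while it was 331 without both libraries of replicate 2 and 292 without both of replicate 3, and the count of higher rows was 237 without vehicle replicate 3. Without vehicle replicate 1, 1 of the 15 other ligase genes was called, Cul4b, chosen after its values were seen. Usp2, at 98 to 124.5 counts per library, is limited by depth.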
